A study of Mus musculus with 6 samples.

Results

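The genes described here are 6 of the 32285 features measured: the chemokine ligands Cxcl9, Cxcl10, Ccl5 and Cxcl16, and the receptors Cxcr3 and Cxcr6, taken by their symbols from the feature lists. Single-cell 3' RNA sequencing was done on live non-cardiomyocytes from the ventricles of male mice 8 to 12 weeks old, digested with thermolysin and papain, filtered, and sorted by Calcein-AM and DAPI. The 6 libraries, each of cells pooled from 4 mice, came from wild-type animals (WT, strain C57BL/6JRj) or animals of the strain B6.Cg-Trpm4tm1.2-PG (KO, targeted in the ion channel gene Trpm4). In each genotype 1 library was made 24 h after a sham operation, 1 at 24 h after tying off the LAD (left anterior descending) coronary artery and 1 at 72 h after ligation. No sham library at 72 h was analysed here, so differences at 72 h are set against 24 h after ligation. With 1 library per group there is no replicate, and every interval below is a 95% interval for counting error only; UMIs (unique molecular identifiers, counted once per captured molecule) of 1 cell are not independent samples of a condition.

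Chemokines are small secreted proteins that guide leukocytes by binding receptors on their surface. Cxcl9 and Cxcl10 are induced by interferons and bind Cxcr3, which effector T cells and natural killer (NK) cells carry. Ccl5 binds chemokine receptors such as Ccr1 and Ccr3 and is made by activated T cells and NK cells as well as by myeloid cells. Cxcl16 is made as a membrane-bound protein that the proteases Adam10 and Adam17 can shed, and its receptor is Cxcr6, found on memory and tissue-resident T cells, NK T cells and innate lymphoid cells.

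The regions just upstream of Cxcl9 and Cxcl10 are shown because these genes are the textbook interferon targets of the set and because they neighbour each other on chromosome 5. Each is the 250 bases before the gene start in RefSeq's table for GRCm38.p6, written 5' to 3' on the gene's strand, which is the minus strand for both: chr5:92328080-92328329 for Cxcl9 and chr5:92348890-92349139 for Cxcl10. Capitals mark matches, on either strand, to an interferon-stimulated response element (GAAANNGAA) or to the NF-kB consensus.
Cxcl9: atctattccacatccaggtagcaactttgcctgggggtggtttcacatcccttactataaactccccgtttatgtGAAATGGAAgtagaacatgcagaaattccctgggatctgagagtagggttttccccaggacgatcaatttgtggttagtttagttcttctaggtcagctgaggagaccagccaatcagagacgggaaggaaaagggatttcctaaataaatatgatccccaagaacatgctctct
Cxcl10: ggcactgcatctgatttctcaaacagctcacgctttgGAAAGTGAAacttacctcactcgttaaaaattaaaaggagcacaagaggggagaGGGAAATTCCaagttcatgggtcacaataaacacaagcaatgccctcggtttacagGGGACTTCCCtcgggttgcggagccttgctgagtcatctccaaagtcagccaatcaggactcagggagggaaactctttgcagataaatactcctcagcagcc
The Cxcl9 region held 1 interferon-stimulated response element, GAAATGGAA, 175 to 167 bases before the start. The Cxcl10 region held 1, GAAAGTGAA, 213 to 205 bases before the start, and 2 NF-kB matches, GGGAAATTCC at 159 to 150 and GGGACTTCCC at 103 to 94. Neither region held a gamma-activated site (TTCNNNGAA). The regions of Cxcr3 and Cxcr6 in the same table held 0 matches to each of these motifs. Among 32817 promoters of the same length, 7.12% held the interferon element, 7.01% the gamma-activated site, 3.9% an NF-kB match and 0.238% both the interferon element and an NF-kB match. A match describes letters only.

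On build GRCm38, Cxcl9 (ENSMUSG00000029417) lies at chr5:92321347-92328079 and Cxcl10 (ENSMUSG00000034855) at chr5:92346638-92348889, inside the span of Art3, a gene of the opposite strand. Ccl5 (ENSMUSG00000035042) lies at chr11:83525778-83530518. Cxcl16 (ENSMUSG00000018920) lies at chr11:70453983-70459984, and its 5' end overlaps Zmynd15 on the opposite strand. Cxcr3 (ENSMUSG00000050232) lies at chrX:101731535-101734269. Cxcr6 (ENSMUSG00000048521) lies at chr9:123806475-123811760 within Fyco1, again on the opposite strand. Whether the counting used strand is not given in the sources used here, so reads of Art3, Zmynd15 or Fyco1 from the shared stretches cannot be told apart from those of the members if it did not.

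After filtering, 32030 of the 34940 deposited barcodes remained, 3361 to 6821 per library, with 20295089 to 42965180 UMIs per library. The KO library at 72 h stood apart in depth, with a median of 1351 UMIs per cell against 3075 to 8008 in the other libraries. Across the libraries, 118 distinct barcodes occurred in more than 1, and leaving out those cells moved none of the ratios below beyond its counting interval. Trpm4 counted 2.56 to 8.38 CPM (counts scaled to 1000000 UMIs), with 52 to 255 UMIs per library and in each pair the lower CPM in KO, but a 3' count cannot check a deletion whose position the labels do not give. Cells were grouped without the 6 members and Trpm4 among the clustering genes, and each class name below means cells resembling that type by its markers. The largest classes were neutrophil (7595 cells), monocyte/macrophage (7410), endothelial (6958) and fibroblast (2199), then a class high in MHC class II genes (1276; H2-Ab1, Cd74, Cd209a), B (532) and T/NK (473). The MHC class II-high class held dendritic and unnamed subclusters and 2 subclusters led by macrophage genes. It also held 1 of 147 cells, 144 of them from the KO library at 72 h, led by haemoglobin and neutrophil granule genes. Among the unnamed ones, 1 of 73 cells was led by Ace and Adgre4, genes of non-classical monocytes. Another of 31 cells was led by interferon-induced genes (Ifit3, Ifit1), and 1 of 11 cells by endothelial genes (Fabp4, Cdh5).

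The 6 genes differed in how widely they were spread over cells. Cxcl16 had 18755 UMIs in 6396 cells, and its 10 highest barcodes held 1.27% of them. Cxcl9 had 2110 UMIs in 1049 cells, Cxcl10 had 11983 in 909 cells and Ccl5 had 9147 in 567 cells, and in each of these the 10 highest barcodes held 23.4% to 23.5%. Of the ligands, Cxcl10 had 50% of its UMIs in the fewest cells, 32, against 39 for Ccl5, while the highest single cell held 355 UMIs of Cxcl10 and 397 of Ccl5. The receptors were sparse, Cxcr3 with 386 UMIs in 300 cells and Cxcr6 with 211 UMIs in 98 cells, and the 10 highest barcodes held 11.1% of the first and 35.1% of the second. Within single libraries the concentration was greater. The 10 highest barcodes held 42.2% to 72.7% of a library's Cxcl10 UMIs, 29.2% to 96.2% of its Ccl5 UMIs and 2.66% to 12.0% of its Cxcl16 UMIs. For Cxcl9 the share was 15.5% and 10.9% in the sham libraries and 53.8% to 74.9% after ligation. For Cxcr3 it was 22.9% to 65.4% and for Cxcr6 56.6% to 100%.

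**Figure D1:**
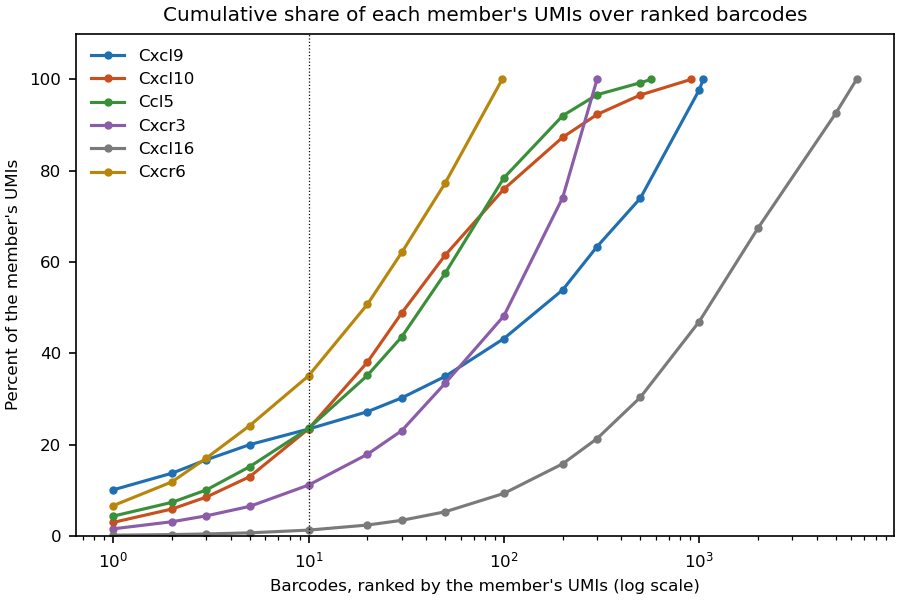
Cumulative share of each gene's UMIs (y axis, percent) against the number of barcodes, ranked from the highest (x axis, log scale), over the 32030 kept cells of all 6 libraries. The 10 highest barcodes hold 1.27% of Cxcl16 and 35.1% of Cxcr6, with the other ligands near 23%.

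**Figure D2:**
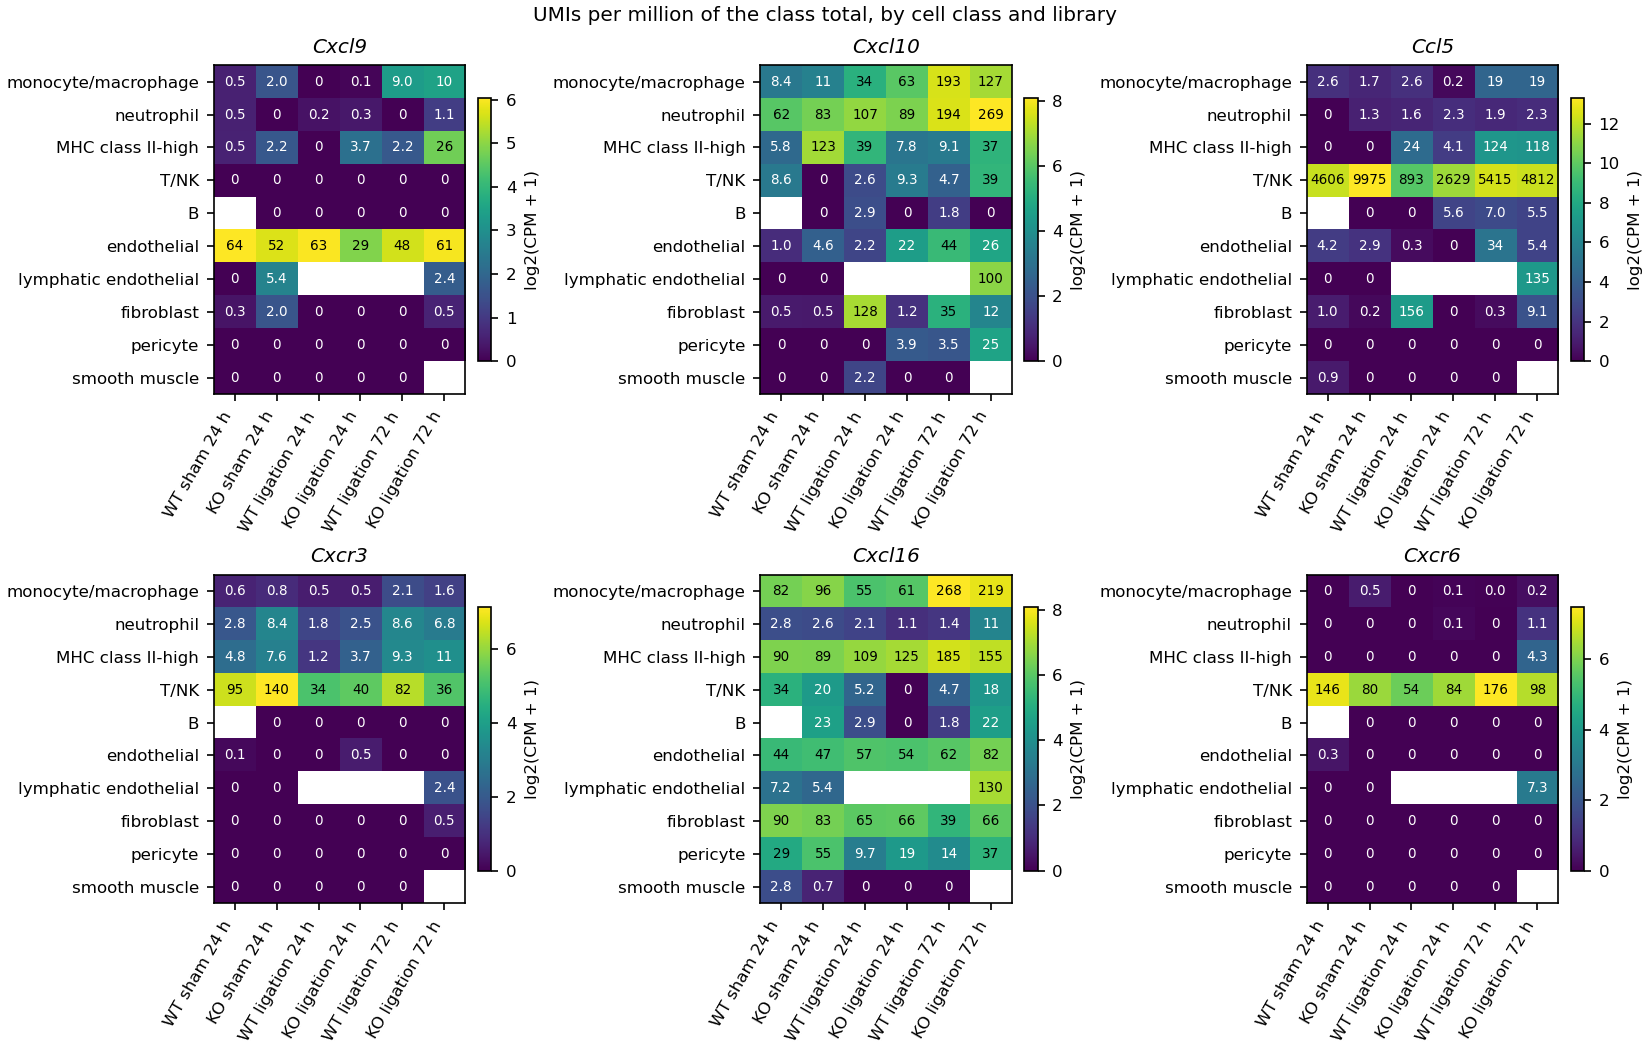
Level of each of the 6 genes (colour, log2(CPM + 1) of the summed UMIs; the numbers in the cells are CPM) by 10 cell classes (rows) and library (columns); white marks classes with fewer than 20 cells in a library. Cxcl9 is highest in endothelial cells, Cxcl10 over all libraries in neutrophil and monocyte/macrophage cells, Cxcl16 in monocyte/macrophage and MHC class II-high cells, and Ccl5, Cxcr3 and Cxcr6 in T/NK cells.

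Cxcl9 was mainly an endothelial transcript in these hearts, and it was present after sham surgery. Endothelial cells held 74.3% of its UMIs, at 55.1 CPM over all libraries (28.9 to 64.4 in single libraries), with UMIs in 13.3% of the cells. The class named erythroid came next at 36.8 CPM (10.3 to 52.4), and all 10 endothelial markers were counted in it. MHC class II-high cells had 6.29 CPM (0 to 25.7) and monocyte/macrophage cells 4.48 CPM (0 to 10.1). The library ranges of the first and the second class overlapped, as did those of the third and the fourth, while endothelial cells lay above MHC class II-high cells in every library. B cells, which should lack the gene, had 0 UMIs in 532 cells, which allows a share of up to 0.564%; their median depth was 2677.5 UMIs and that of endothelial cells 3362.5. The 3 genes whose levels were most like those of Cxcl9 across 62 profiles of 15 classes were Car7 (Pearson r = 0.883), 4930555A03Rik (0.879) and Dipk2b (0.877); profiles of 1 library share its depth.

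In endothelial cells, Cxcl9 stood at 64.4 CPM (554 UMIs) in the WT and 51.9 CPM (636 UMIs) in the KO sham library. At 24 h after ligation it stood at 62.8 CPM (196 UMIs) in WT and 28.9 CPM (64 UMIs) in KO, and at 72 h at 48.2 CPM (73 UMIs) in WT and 60.8 CPM (45 UMIs) in KO. The KO library at 24 h after ligation was the lowest of the 6, and the other 5 lay between 48.2 and 64.4 CPM. The KO to WT ratio there was -1.12 on the log2 scale (interval -1.55 to -0.71), a 2.18-fold lower level, against -0.31 after sham and 0.33 (-0.23 to 0.89) at 72 h. The WT library of this pair owed 77 of its 196 UMIs to 1 barcode, and without the 10 highest barcodes the ratio was less than 2-fold. Cells with a Cxcl9 UMI made up 15.5%, 13.7%, 11.6%, 5.93%, 18.4% and 8.33% of endothelial cells in the order WT sham, KO sham, WT and KO at 24 h, WT and KO at 72 h. After thinning each cell to 1000 UMIs, these shares were 5.76%, 4.18%, 4.87%, 1.59%, 7.91% and 5.32%, with 8 to 40 shallower cells left out per library, and the KO library at 24 h was again the lowest.

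Not all endothelial cells took part alike. The largest cluster, number 0, led by the capillary genes Aqp1, Fabp4 and Gpihbp1 (3524 cells), had Cxcl9 at 68.2 CPM in 17.3% of its cells, and one led by Apln (810 cells) had 57.0 CPM in 15.7%. A cluster led by Sox17 and Hey1, genes of arterial endothelium (1877 cells), had 16.7 CPM in 4.74%, and one led by Vwf and Npr3 (378 cells) had 1.65 CPM. A cluster of 323 cells led by interferon-induced genes (Iigp1, Ifit1, Rsad2) had the highest level, 229 CPM in 27.6% of its cells. Leaving that cluster out, endothelial Cxcl9 was still counted in all libraries, at 18.2 to 60.9 CPM. In the capillary cluster it was 86.5 and 59.6 CPM in WT and KO sham, 64.1 and 29.6 CPM at 24 h, and 118 and 124 CPM at 72 h, where 62 and 51 cells remained. The Vwf and Npr3 cluster, low in Cxcl9, held 21 of 223 WT and 92 of 228 KO endothelial cells at 72 h.

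**Figure D3:**
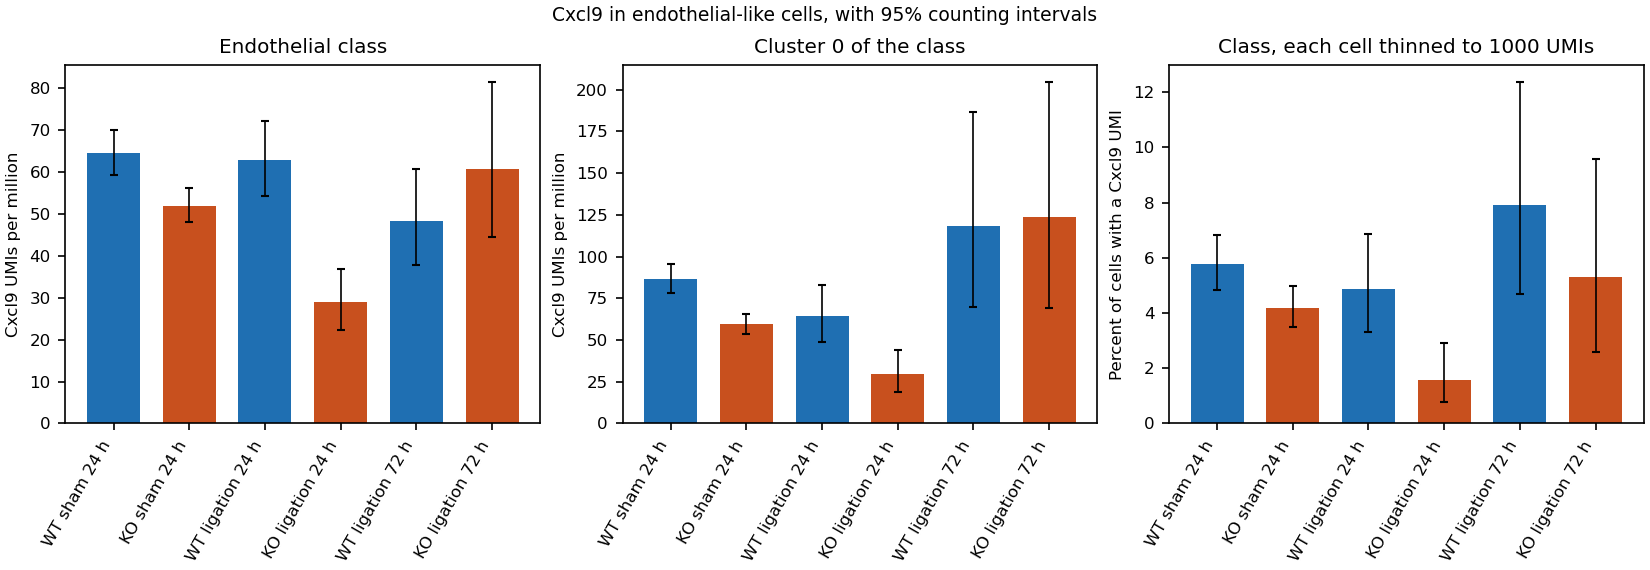
Cxcl9 in endothelial cells by library (blue WT, orange KO): CPM of the class (left), CPM of cluster 0, the capillary cluster (middle), and percent of cells with a UMI after thinning to 1000 UMIs per cell (right), with exact 95% intervals for counting error. The KO library at 24 h after ligation is the lowest in all 3 panels, at 28.9 CPM, 29.6 CPM and 1.59%.

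Cxcl9 in monocyte/macrophage cells was rare and late. The counts were 5 and 17 UMIs in the WT and KO sham libraries, 0 and 1 at 24 h, and 261 and 91 at 72 h, which is 9.01 and 10.1 CPM. Of these, 93.9% in WT and 95.6% in KO lay in the cluster of this class whose leading genes are induced by interferon, described next. A single WT barcode of that cluster carried 213 of the 261 UMIs and no Cxcl10 UMI.

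Cxcl10, the other Cxcr3 ligand of the set, was mainly a myeloid transcript. Neutrophil cells had 108 CPM over all libraries (62.5 to 269 in single libraries) and monocyte/macrophage cells 99.8 CPM (8.35 to 193), and the latter held 69.7% of the UMIs, with median depths of 2422 and 10383.5 UMIs per cell. Their library ranges overlapped. Unnamed cells had 74.4 CPM, mesothelial cells 42.5 and lymphatic endothelial cells 27.6, with most of these UMIs in the KO library at 72 h. Fibroblast cells had 25.2 CPM (0.452 to 128), MHC class II-high cells 23.6 (5.77 to 123), T/NK cells 11.8 and endothelial cells 7.21 (1.05 to 43.6), and the ranges of these named classes overlapped too. Cxcl10 was present in 5.56% of monocyte/macrophage and 2.79% of neutrophil cells. No class is sure to lack it, so free RNA cannot be judged from a negative class; B cells had a UMI in 0.376%. Its most similar genes over the 62 profiles were Tnfrsf1b (r = 0.759), Nlrp1a (0.746) and Cd101 (0.745).

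In monocyte/macrophage cells Cxcl10 was higher after ligation and highest at 72 h. After sham it stood at 8.35 CPM (90 UMIs) in WT and 10.8 CPM (91 UMIs) in KO. At 24 h after ligation it stood at 34.2 CPM (285 UMIs) and 63.2 CPM (1149 UMIs), and at 72 h at 193 CPM (5585 UMIs) and 127 CPM (1147 UMIs). The libraries of the 3 conditions lay apart, with no overlap between one condition's pair and the next. Against sham, the level at 24 h was 4.10-fold higher in WT (log2 2.04, interval 1.69 to 2.39) and 5.83-fold higher in KO (2.54, 2.24 to 2.87). From 24 h to 72 h it was 5.63-fold higher in WT (2.49, 2.32 to 2.67) and 2.01-fold higher in KO (1.01, 0.89 to 1.13). Between genotypes KO was higher at 24 h (0.88, 0.70 to 1.08) and lower at 72 h (-0.60, -0.69 to -0.51), both less than 2-fold.

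Most of this Cxcl10 came from a small group of cells. One monocyte/macrophage cluster, number 16, led by Ccl8, Irf7, Ifit3 and Isg15, held 91.6% of the class's Cxcl10 UMIs in WT and 88.7% in KO at 72 h, from 544 and 108 cells. Within it Cxcl10 was counted in 24.8% of cells at 713 CPM in WT and in 33.3% at 1369 CPM in KO. In the sham and 24 h libraries the cluster had 3 to 19 cells and held 26.4% to 79.5% of the class's Cxcl10. Without it, Cxcl10 in the class stood at 3.47 and 8.02 CPM after sham, 22.0 and 13.1 at 24 h, and 21.4 and 15.7 at 72 h, so that the WT levels at 24 h and 72 h were then alike (log2 -0.04). The make-up of the class differed between times: clusters led by Arg1 and Ccl24 or by Ly6c2 and Chil3, and resident macrophages marked by Lyve1 and Folr2, made up most of it after sham and at 24 h, while a cluster led by Trem2 and Gpnmb, the interferon-gene cluster, the Ly6c2 cluster and a cycling one held most of it at 72 h. Neutrophil marker genes, 9 of 9 counted, summed to 2040 and 2951 CPM in the class at 24 h against 172 and 850 CPM at 72 h and 423 and 531 CPM after sham; their part in the ratios was not tested. In KO at 72 h the class's median depth was 3837 UMIs per cell against 12189 in WT, and after thinning to 1000 UMIs the share of cells with Cxcl10 was 3.85% in WT and 4.95% in KO (8.42% and 7.64% unthinned), with 15 and 166 shallower cells left out.

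**Figure D4:**
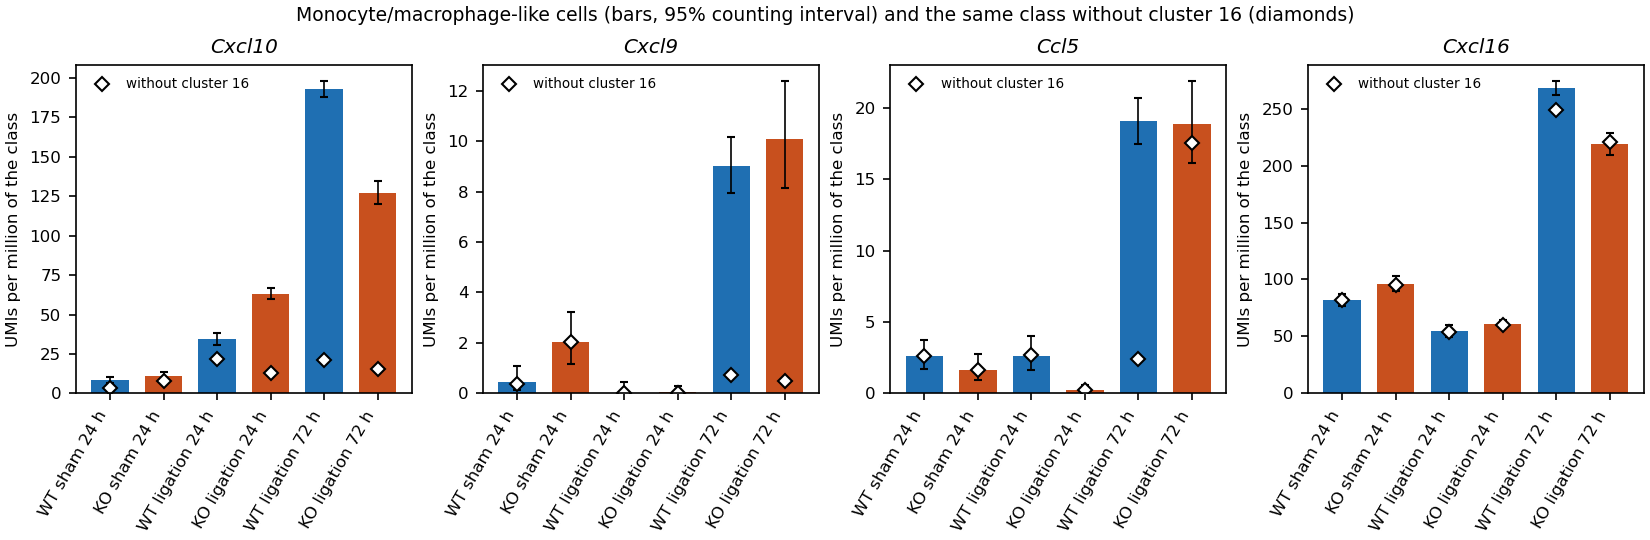
Cxcl10, Cxcl9, Ccl5 and Cxcl16 in monocyte/macrophage cells by library: bars give CPM with the exact 95% interval for counting error (blue WT, orange KO), and diamonds the class without the interferon-gene cluster 16. Cxcl10 and Cxcl16 are highest in the libraries at 72 h after ligation, at 127 and 193 CPM and at 219 and 268 CPM.

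Neutrophil cells showed a smaller range of Cxcl10. It was 62.5 and 83.4 CPM in WT and KO after sham, 107 and 89.3 CPM at 24 h, and 194 and 269 CPM at 72 h, from 129 to 857 UMIs. Both libraries at 72 h lay above the other 4. A neutrophil cluster led by Slfn4, Rsad2 and Ifit1 held 43.3% and 48.1% of these UMIs after sham, 74.9% and 88.6% at 24 h and 92.8% and 93.2% at 72 h. Without it the class stood at 10.9 to 45.1 CPM and the sham libraries were the highest.

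Ccl5 was mainly a lymphocyte transcript, with the next largest shares of its UMIs in MHC class II-high and monocyte/macrophage cells. T/NK cells held 72.8% of its UMIs, at 3940 CPM (893 to 9975 in single libraries). MHC class II-high cells had 67.2 CPM (0 to 124; 9.46% of UMIs) and monocyte/macrophage cells 9.44 CPM (0.220 to 19.1; 8.64%). T/NK cells lay above every other class in all libraries, and the ranges of the other classes overlapped. Fibroblast cells were planned as the class that should lack the gene, but had a UMI in 0.955% of 2199 cells at a median depth of 6342 UMIs. Smooth muscle cells had one in 0.190% of 526 cells at 5951.5, against 44.6% of T/NK cells at 3303. No class was therefore taken as sure to lack the gene. One fibroblast barcode of the WT library at 24 h held 397 of the 421 fibroblast UMIs. The genes most like Ccl5 were Nkg7 (r = 0.819), Ctsw (0.810) and Trbc2 (0.801), genes of cytotoxic cells and of the T cell receptor.

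In T/NK cells Ccl5 was 4606 CPM (535 UMIs, 20 cells) in WT and 9975 CPM (1000 UMIs, 27 cells) in KO after sham. At 24 h after ligation it was 893 CPM (346 UMIs, 74 cells) in WT and 2629 CPM (850 UMIs, 91 cells) in KO. At 72 h it was 5415 CPM (2311 UMIs, 91 cells) in WT and 4812 CPM (1619 UMIs, 170 cells) in KO. The libraries at 24 h after ligation were the lowest of each genotype, and the KO library lay above WT in the sham and 24 h pairs and below it at 72 h. On the log2 scale KO against WT was 1.11 (0.96 to 1.27) after sham, 1.56 (1.38 to 1.74) at 24 h and -0.17 (-0.26 to -0.08) at 72 h. In 5 of the 6 libraries there were fewer than 100 T/NK cells. With each cell weighted equally, or with cells thinned to 1000 UMIs, the first and the second of these ratios fell short of 2-fold. NK marker genes moved with these levels: all 9 were counted in each library, and they summed to 3883 and 11841 CPM after sham, 1166 and 1995 at 24 h and 4262 and 3159 at 72 h in WT and KO. Macrophage marker genes summed to 11808 CPM in T/NK cells of the KO library at 72 h (16 of 16 counted) against 499 to 3401 CPM (7 to 15 of 16) in the other libraries; without the subclusters they lead, the ratio at 72 h was -0.35. The part of either marker list in the Ccl5 ratios was not tested.

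Subclusters of the T/NK cells showed where Ccl5 and the receptors lay. The NK subcluster (number 4, 55 cells; Ncr1, Klre1, Gzma) had Ccl5 in 55 of 55 cells at 18793 CPM. Subcluster 3 (72 cells), with the gamma-delta T gene Trdc, Il1rl1 and histone genes among its leading genes, beside mast cell genes that came from 1 cell, had all 12 T cell markers counted and Ccl5 in 55.6% of cells at 5739 CPM. Subclusters with Ccr7 and Lef1, genes of naive T cells (number 0, 134 cells), and with Igfbp4 and Bach2 (number 2, 84 cells) had 341 and 367 CPM in 5.22% and 7.14% of cells. Another 2 were led by macrophage genes, number 1 with 102 of its 114 cells from the KO library at 72 h and number 5 with 14 cells of that library only, and had Ccl5 at 3283 and 3009 CPM. Of the 211 T/NK cells with Ccl5, 42.7% also had a UMI of Ncr1, Klrb1c or Klre1, against 1.53% of the 262 cells without, and 41.2% had a Cd3 gene, against 85.5%; the cells with Ccl5 were the shallower ones (median 2232 against 3737.5 UMIs).

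**Figure D5:**
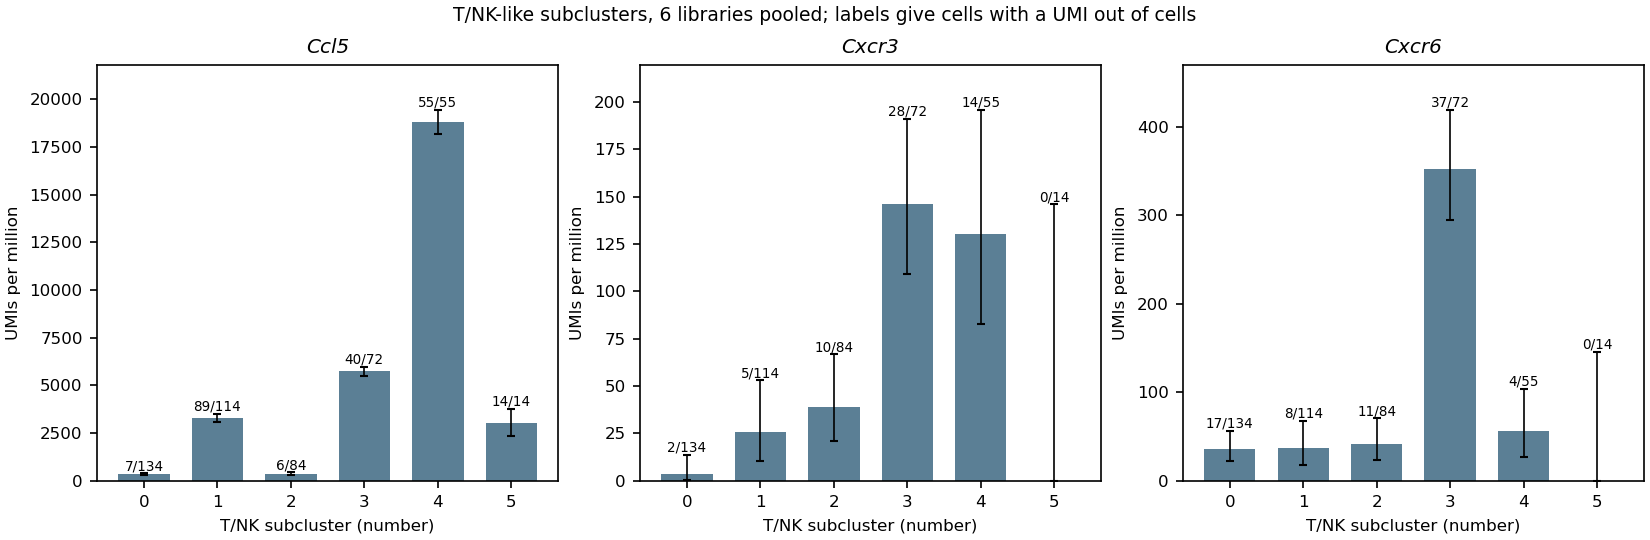
Ccl5, Cxcr3 and Cxcr6 (y axes, CPM) in T/NK subclusters 0 to 5 (x axes), with the 6 libraries pooled; bars carry the exact 95% interval for counting error, and the labels give cells with a UMI out of cells. Ccl5 is highest in NK subcluster 4 at 18793 CPM, Cxcr6 in subcluster 3 at 353 CPM, and the Cxcr3 intervals of these overlap at 131 and 146 CPM.

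Ccl5 was also higher at 72 h than at 24 h in MHC class II-high and monocyte/macrophage cells; in WT fibroblast cells, where 1 barcode held the UMIs at 24 h, it was lower. In MHC class II-high cells it was 0 in both sham libraries, 23.7 CPM (20 UMIs) in WT and 4.12 CPM (9 UMIs) in KO at 24 h, and 124 CPM (560 UMIs) and 118 CPM (276 UMIs) at 72 h. Both 72 h libraries lay above the others, and the KO to WT ratio at 72 h was -0.07 (-0.29 to 0.14). From 24 h to 72 h in KO the log2 ratio was 4.84, but 0.50 without doublet removal. A mature dendritic subcluster of 35 cells (Ccr7, Fscn1, Ccl22), 12 of them from WT and 19 from KO at 72 h, had Ccl5 in 80% of cells at 2294 CPM. In monocyte/macrophage cells Ccl5 was 0.220 to 2.64 CPM in the sham and 24 h libraries and 19.1 CPM (552 UMIs) in WT and 18.8 CPM (170 UMIs) in KO at 72 h. These nearly equal levels had different sources, since the interferon-gene cluster held 90.6% of the WT but 14.7% of the KO UMIs. Without that cluster, WT stood at 2.39 and KO at 17.5 CPM. T cell marker genes summed to 15.3 CPM in KO (12 of 12 counted) and 5.70 CPM in WT (11 of 12), and NK markers to 2.22 CPM (6 of 9) and 0.345 CPM (4 of 9); their part was not tested.

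Cxcl16 was the one ligand found broadly among macrophages, endothelium and stroma. Among the larger named classes, monocyte/macrophage cells had 155 CPM (54.5 to 268; 69.3% of UMIs), MHC class II-high cells 142 (88.7 to 185), fibroblast cells 70.6 (38.6 to 90.2), endothelial cells 49.5 (43.6 to 82.4) and erythroid cells 48.3. Unnamed cells had 131 CPM, cardiomyocyte cells 51.0, and Schwann and mesothelial cells, with at least 20 cells in 1 library each, 159 and 152. The range of each of the first 4 classes overlapped with that of the next named here, while MHC class II-high and endothelial cells did not overlap. Neutrophil cells had 2.09 CPM, smooth muscle cells 1.44 CPM and T/NK cells 9.46 CPM. A UMI was found in 46.0% of monocyte/macrophage and 0.474% of neutrophil cells, with median depths of 10383.5 and 2422 UMIs. Rab3il1 (r = 0.846), Tmem106a (0.810) and Anxa4 (0.809) had the most similar profiles.

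In monocyte/macrophage cells Cxcl16 was lower at 24 h after ligation than after sham and higher at 72 h. It stood at 81.9 CPM (883 UMIs) in WT and 96.2 CPM (808 UMIs) in KO after sham, 54.5 (454 UMIs) and 61.0 (1109 UMIs) at 24 h, and 268 (7767 UMIs) and 219 (1973 UMIs) at 72 h. Again no condition's pair of libraries overlapped with another's. The level at 72 h was 4.92-fold that at 24 h in WT (log2 2.30, 2.16 to 2.44) and 3.58-fold in KO (1.84, 1.73 to 1.95). Against sham, 24 h was 1.50-fold lower in WT and 1.58-fold lower in KO. KO against WT was 0.23 (0.09 to 0.37) after sham, 0.16 (0.00 to 0.32) at 24 h and -0.29 (-0.37 to -0.22) at 72 h, all below 2-fold. With each cell thinned to 1000 UMIs, 7.55% and 8.24% of cells had Cxcl16 after sham, 6.55% and 4.86% at 24 h and 18.9% and 17.9% at 72 h, against 38.6%, 41.0%, 27.9%, 31.4%, 67.7% and 45.1% unthinned.

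Unlike Cxcl10, the level of Cxcl16 at 72 h did not rest on the interferon-gene cluster: without it WT stood at 248 and KO at 221 CPM. Clusters of the class differed, with 296 CPM in the cluster led by Trem2 and Gpnmb, 307 in the interferon-gene cluster, 247 in resident macrophages (Lyve1, Folr2, Cbr2) and 219 in the cycling one, against 43.5 in the Arg1 and Ccl24 cluster and 43.4 in the Ly6c2 and Chil3 cluster. The low clusters were common early: the Arg1 cluster was 43.2% and 43.4% of the class after sham, 51.7% and 46.9% at 24 h and 9.23% and 11.6% at 72 h. Levels within clusters were higher at 72 h as well. Resident macrophages had 221 and 260 CPM after sham, 210 and 191 at 24 h and 399 and 417 at 72 h, the Arg1 cluster 34.8 to 44.6 before 72 h and 90.3 and 112 at 72 h, and the Ly6c2 cluster 24.8 to 40.3 before and 61.3 and 64.0 at 72 h.

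In endothelial, fibroblast and MHC class II-high cells Cxcl16 differed by less than 2-fold in each pair of libraries compared. Endothelial cells stood at 43.6 and 47.4 CPM after sham, 56.7 and 54.1 at 24 h and 62.1 and 82.4 at 72 h, with the highest levels in the cluster led by Vwf and Npr3, at 135 to 243 CPM in single libraries. That cluster held 97 of 2221 WT and 105 of 2989 KO endothelial cells after sham. At 24 h it held 29 of 639 and 34 of 658, and at 72 h 21 of 223 and 92 of 228. The part of this make-up in the levels was not tested. Macrophage markers summed to 6709 CPM in endothelial cells of the KO library at 72 h against 523 to 2026 in the others (14 to 16 of 16 counted in each), and their part was not tested. Fibroblast cells stood at 90.2 and 83.1, 65.0 and 65.6, and 38.6 and 66.5 CPM in the same order. MHC class II-high cells had 89.9 and 88.7, 109 and 125, and 185 and 155 CPM, and their mature dendritic subcluster had the highest level, 615 CPM in 74.3% of cells.

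The receptor Cxcr3 was counted at low levels, highest in T/NK cells, while its UMIs were spread over several classes. Monocyte/macrophage cells held 26.7% of them, T/NK cells 25.4%, MHC class II-high cells 24.1% and neutrophil cells 19.4%, and the 532 B cells held 0. T/NK cells had 58.0 CPM (33.5 to 140) with a UMI in 12.5% of cells, MHC class II-high cells 7.22 (1.19 to 10.7) in 5.02%, neutrophil cells 3.64 (1.84 to 8.62) in 0.922% and monocyte/macrophage cells 1.23 (0.481 to 2.14) in 1.21%. T/NK cells lay above all the others in every library, and the next 3 overlapped. Fibroblast cells, which should lack it, had a UMI in 1 of 2199 cells (0.0455%, median depth 6342). In T/NK cells it was 94.7 CPM (11 UMIs) in WT and 140 (14) in KO after sham, 33.5 (13) and 40.2 (13) at 24 h, and 82.0 (35) and 35.7 (12) at 72 h, and the intervals of most of these overlapped. T/NK subcluster 3 had 146 CPM in 38.9% of cells and the NK subcluster 131 CPM in 25.5%, against 3.83 CPM in 1.49% of the Ccr7 and Lef1 cells. Among the MHC class II-high cells, type 1 conventional dendritic cells (64 cells; Xcr1, Clec9a) had 62.6 CPM in 50% of cells and plasmacytoid dendritic cells (15 cells; Siglech) 61.2 CPM in 33.3%. Profiles most like that of Cxcr3 were those of Cd8b1 (r = 0.817), Cd3d (0.807) and Tnfrsf18 (0.801).

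The receptor Cxcr6 was the most cell-type restricted of the 6 in its counts. T/NK cells held 85.8% of the 211 UMIs, at 107 CPM (54.2 to 176), and a UMI was found in 16.3% of them. Fibroblast cells had 0 UMIs in 2199 cells, which allows a share of up to 0.136%, B cells 0 in 532, MHC class II-high cells 10 UMIs and monocyte/macrophage cells 8. In T/NK cells it was 146 CPM (17 UMIs) and 79.8 (8) after sham, 54.2 (21) and 83.5 (27) at 24 h, and 176 (75) and 98.1 (33) at 72 h in WT and KO. The WT library at 72 h was the highest, 3.24-fold above WT at 24 h (log2 1.70, 0.98 to 2.47), but below 2-fold with cells thinned to 1000 UMIs (0.76), and KO against WT at 72 h was -0.84 (-1.48 to -0.23). The make-up of the class differed in that pair. Of the 170 KO cells, 102 and 14 lay in subclusters 1 and 5, led by macrophage genes, against 1 and 0 of the 91 WT cells. Subcluster 3 held 19 KO and 27 WT cells. Over all libraries, subcluster 3 had 353 CPM in 51.4% of cells, against 36.4 to 56.8 CPM in subclusters 0, 1, 2 and 4 and 0 UMIs in the 14 cells of subcluster 5. Of the 77 T/NK cells with Cxcr6, 87.0% had a Cd3 gene, 58.4% had Cd8a or Cd8b1 (23.5% of those without) and 10.4% an NK gene, and their median depth was 4706 against 2964.5 UMIs. Cd3g (r = 0.969), Xcl1 (0.960) and Skap1 (0.958) had the most similar profiles.

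Members shared cells in some classes. In monocyte/macrophage cells, 11 of the 41 cells with Cxcl9 also had Cxcl10 (26.8%, against 5.56% of the class), and in endothelial cells 14 of the 40 with Cxcl10 also had Cxcl9 (35%, against 13.3%). Both shares pool the libraries, which differ in the level of these genes. The first was 9 of 16 in WT at 72 h, where 176 of all 2091 cells had Cxcl10, and 0 of 11 in KO sham, where 25 of 792 did. The second was 5 of 16 in KO sham, where 410 of 2989 had Cxcl9. In T/NK cells, 21 of the 59 cells with Cxcr3 had Cxcr6 (35.6%, against 16.3% of the class) and 45 had Ccl5 (76.3%, against 44.6%). Cells with Cxcr6 had Ccl5 about as often as the class (34 of 77, 44.2%). In the KO library at 72 h alone, 7 of the 10 cells with Cxcr3 had Ccl5, against 120 of all 170, and 1 of the 10 had Cxcr6, against 15 of 170. T/NK cells with a receptor UMI were deeper than the others (median 4684 against 3102 UMIs for Cxcr3), and the part of depth was not tested.

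Counted over the 6 genes in monocyte/macrophage cells, the change from 24 h to 72 h after ligation covered all members with enough UMIs. A member was measured in a pair when it had at least 50 UMIs over both libraries, and counted when its CPM differed at least 2-fold. From 24 h to 72 h, 5 of 5 measured members were higher in WT (Cxcl9, Cxcl10, Ccl5, Cxcr3, Cxcl16), where 12.5% of all measured genes were at least 2-fold higher and 19.3% higher or lower. In KO 4 of 4 were higher (Cxcl9, Cxcl10, Ccl5, Cxcl16), with 8.36% and 11.5% of all genes. Several members reached 50 UMIs only through the 72 h library. In WT these were Cxcl9, Ccl5 and Cxcr3, with 0, 22 and 4 UMIs at 24 h, and in KO Cxcl9 and Ccl5, with 1 and 4. For these the direction is not independent of the UMI minimum, so the counts of members are no separate evidence of a shared change. Cxcl9 was at least 25.0-fold higher in WT, since it had 0 UMIs at 24 h, and Ccl5 was 7.21-fold higher. At 24 h against sham, 1 of 3 members in WT and 1 of 2 in KO was 2-fold higher, Cxcl10 in both, where 2.49% and 1.75% of all genes were higher and 6.62% and 9.33% higher or lower. Between KO and WT, 0 of 2 members after sham, 0 of 2 at 24 h and 0 of 5 at 72 h passed 2-fold, where 2.47%, 1.74% and 2.9% of all genes did and 0.752% were lower at 72 h. Comparisons that share a library, such as 24 h against sham and 72 h against 24 h, are not independent of each other. Without the 10 highest barcodes of each library, or with cells thinned, 3 of the 3 members that still had 50 UMIs passed in WT from 24 h to 72 h, and without the interferon-gene cluster 1 of 3 did, Cxcl16.

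Genes of the interferon pathways were read in the same cells, where 12.5% of all measured genes in WT and 8.36% in KO were at least 2-fold higher from 24 h to 72 h and 0.752% were lower in KO than in WT at 72 h. Of 10 genes induced by type I interferon, 9 were measured in WT from 24 h to 72 h and 9 were at least 2-fold higher, with a median log2 ratio of 2.42 against 0.05 over all genes. Examples are Ifit2, at 3.12 and then 60.4 CPM, and Ifit3, at 8.41 and then 118 CPM, which encode antiviral proteins. Isg15, which encodes a ubiquitin-like protein, stood at 126 and then 409 CPM. In KO 6 of 8 were higher with a median of 1.26 against 0.13. KO stood below WT at 72 h in 9 of 9, and 3 passed 2-fold: Ifit3 (49.7 and 118 CPM), Oasl1 (18.1 and 37.8) and Ifi44 (2.55 and 8.22); the median was -0.75 against 0.01 over all genes. Irf7, the transcription factor that amplifies type I interferon, was 59.5 and then 303 CPM in WT and 60.6 and then 131 in KO, the 1 of 6 measured type I interferon inputs past 2-fold in each genotype. These genes also define the interferon-gene cluster, whose cell number differed between the libraries (544 in WT and 108 in KO at 72 h), and its part in the list was not tested. The UMI minimum over the pair applied to these genes too. Genes low at 24 h, such as Ifit2, reached it only through the 72 h library. For these the direction is not independent of the minimum, so the counts and medians of the list are no separate evidence of a shared change.

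Genes induced by interferon-gamma and other related lists moved less uniformly; over all measured genes 19.3% in WT and 11.5% in KO were past 2-fold in either direction, with medians of 0.05 and 0.13. Of 10 interferon-gamma-induced genes, 7 were higher and 1 lower in WT from 24 h to 72 h (median 1.42), and 5 of 8 were higher and 1 lower in KO (median 1.38). Gbp2, a guanylate-binding protein, was 3.24 and then 19.2 CPM in WT, Ciita, the regulator of MHC class II genes, 3.48 and then 9.26, and Cd274, which encodes PD-L1, was the lower one at 36.9 and then 7.05. Gbp2 and Ciita reached the UMI minimum only through the 72 h library, so the same limit holds for this list. Of 7 measured interferon-gamma inputs, 1 was higher and 1 lower in WT, the transcription factor Irf1 (13.5 and 28.5 CPM) and the receptor kinase Jak2 (46.7 and 16.9). In KO the feedback inhibitor Socs1 was lower (9.96 and 4.65 CPM). Of 4 NF-kB genes, 2 were lower in WT, Nfkbia (728 and 244 CPM) and Tnf (21.5 and 7.74), and 1 in KO, Nfkbia (601 and 286). The Ccl5 receptor Ccr1 was lower in WT (465 and 220 CPM), while in KO it differed by less than 2-fold; the Cxcl16 sheddases Adam10 and Adam17 passed 2-fold in none of the 7 pairs in monocyte/macrophage cells. Ifng, the gene of interferon-gamma, had 52 UMIs in 29 cells, and 48 of them (92.3%) lay in T/NK cells. Per library those T/NK cells held 4 and 3 Ifng UMIs after sham, 6 and 3 at 24 h, and 23 and 9 at 72 h. In WT 1 cell held all 6 UMIs at 24 h and 1 cell held 15 of the 23 at 72 h. Most of the KO UMIs at 72 h lay in T/NK subclusters 1 and 5, which are led by macrophage genes. These counts are too few and too concentrated to compare libraries.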

How the data were processed

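The authors deposited, for each of the 6 libraries, a matrix of UMI counts per gene and cell barcode, which per the file headers come from Cell Ranger 6.0.0; the build is mm10, per the submitters' processing notes, and gene annotation and strand setting are not given in the sources used here. Each library is 1 group, taken from the sample labels. The deposited barcodes had at least 500 UMIs. Barcodes with at least 200 genes and at most 20% mitochondrial counts were kept. Scrublet's automatic threshold marked 65 of 34940 barcodes, too few to be trusted, so the highest doublet scores were removed at 0.8% per 1000 barcodes, 1708 in all. Counts were log-normalised and clustered in scanpy 1.11.5 (Python 3.11.15; 2000 variable genes, 30 components, 20 neighbours, Leiden resolution 1, leidenalg 0.10.2), leaving the 6 genes and Trpm4 out of the variable genes. Clusters were named from marker lists, with naming thresholds set after the clusters were seen; T/NK and MHC class II-high cells were clustered again. A cluster without a clear name stayed unnamed.

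UMIs were summed per class and library and scaled to CPM of the class total. Intervals are exact Poisson, binomial or conditional 95% intervals (scipy 1.17.1), which cover counting error only. With 1 library per group no test was run, and a model of genotype across the 3 conditions was not fitted. A ratio of at least 2 with at least 50 UMIs over the pair was counted. A fold against 0 UMIs was set against 3 counts and is a lower bound. The ratio and thinning steps were checked on simulated data. The genes named are the 6 members, the genes of the pathway lists with at least 50 UMIs over a pair, and the 3 genes most alike to each member by Pearson's r of log2(CPM + 1) over class profiles of at least 50 cells, among genes with at least 500 UMIs; genes that describe a cluster were chosen from its leading genes. The members and lists were chosen with earlier results of these data known. There were 10 alternatives planned and 2 added after seeing the data, the latter leaving out the interferon-gene clusters or the T/NK subclusters led by macrophage genes. Cxcl11 and protein sequences were not analysed here, and some genes of the pathway lists are not reported here.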

Additional observations from a re-analysis of the deposited data

Results flagged for a closer look

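Several ratios pointed in opposite directions in different pairs of libraries with counting intervals that did not include 0. The difference between these ratios was not tested, since each group is 1 library, and the intervals leave out variation between animals. All ratios are on the log2 scale.

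Cxcl10 in monocyte/macrophage cells was higher in KO than in WT at 24 h after ligation (0.88) and lower at 72 h (-0.6). At 24 h the interferon-gene cluster 16 held 913 of the 1149 KO UMIs, in 19 cells, and 103 of the 285 WT UMIs, in 7 cells. Without it KO lay below WT at both times, at 13.1 and 22.0 CPM at 24 h and 15.7 and 21.4 CPM at 72 h. Cxcl16 in monocyte/macrophage cells was higher in KO after sham (0.23) and at 24 h (0.16) and lower at 72 h (-0.29). The lower end of the 24 h interval rounded to 0. With cells thinned, the share of cells with Cxcl16 at 24 h was lower in KO than in WT. Cxcl10 in neutrophil cells was higher in KO after sham (0.42) and at 72 h (0.47) and lower at 24 h (-0.26).

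Cxcl10 in endothelial cells was higher in KO after sham (2.13, from 56 and 9 UMIs) and at 24 h (3.27, from 48 and 7 UMIs) and lower at 72 h (-0.76, from 19 and 66 UMIs). The endothelial cluster led by interferon-induced genes held 42 of the 56 and 47 of the 48 KO UMIs, and 0 of the WT UMIs in those pairs. At 72 h 1 barcode held 56 of the 66 WT UMIs.

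Ccl5 in T/NK cells was higher in KO after sham (1.11) and at 24 h (1.56) and lower at 72 h (-0.17). Cxcl10 in MHC class II-high cells was higher in KO after sham (4.42) and at 72 h (2.03) and lower at 24 h (-2.33). The 114 UMIs of the KO sham library all lay in 1 barcode. From 24 h to 72 h Cxcl10 in these cells was higher in KO (2.26) and lower in WT (-2.11), from 87 and 17 UMIs in KO and 41 and 33 UMIs in WT. In WT 1 barcode held 37 of the 41 and 1 held 21 of the 33. At Leiden resolution 2 the WT ratio was -0.42 and the KO to WT ratio at 24 h was -0.22, both short of 2-fold.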

How the results depend on the processing

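Of 96 log2 ratios over 6 classes and 7 pairs of libraries, 43 passed 2-fold; 23 of these passed it under all alternatives run for them, 20 lost it under at least 1, and 8 changed sign under at least 1. With other clusterings, filters, weightings and scalings, 633 ratios stayed within the counting interval, 188 moved beyond it and 5 changed direction. The cause of the changes was not tested. Cxcl16 in monocyte/macrophage cells from 24 h to 72 h ranged from 1.67 to 2.53 in WT and from 1.45 to 1.95 in KO, and Cxcl10 at 24 h against sham in WT from 2.01 to 2.67. Cxcl10 from 24 h to 72 h in KO ranged from 0.26 to 2.12 and fell short of 2-fold at Leiden resolution 2, in cells of at least 1500 UMIs, relative to the median gene and without the interferon-gene cluster.

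Counts of members past 2-fold in monocyte/macrophage cells changed as follows. KO against WT after sham went from 0 to 1 with no UMI minimum and to 1 without the interferon-gene cluster. KO against WT at 24 h went from 0 to 1 without the 10 highest barcodes, relative to the median gene and with no minimum. KO against WT at 72 h went from 0 to 2 without the 10 highest barcodes and to 1 without the interferon-gene cluster. Ligation at 24 h against sham went in WT from 1 to 0 without the 10 highest barcodes and with thinned cells, both of which left Cxcl10 under 50 UMIs over the pair, and to 2 with the mean of per-cell CPM; in KO it went from 1 to 4 with no minimum and to 0 without the interferon-gene cluster. From 24 h to 72 h the count went in WT from 5 of 5 measured members to 3 of 3 without the 10 highest barcodes, 3 of 3 with thinned cells and 1 of 3 without the interferon-gene cluster, and in KO from 4 of 4 to 2 of 3 without that cluster.

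Of the ratios past 2-fold, those that changed direction without the 10 highest barcodes were Cxcl9 in monocyte/macrophage cells from 24 h to 72 h in WT (-0.40), Cxcl10 in neutrophil cells (-0.49) and Cxcl9 in endothelial cells (-0.043) from 24 h to 72 h in KO, and Cxcl10 in fibroblast cells, KO against WT at 72 h (1.74, and 0.50 with thinned cells). Without the interferon-gene cluster of the class, an alternative added after seeing the data, these were Cxcl10 (-0.040) and Ccl5 (-0.16) in monocyte/macrophage cells from 24 h to 72 h in WT, and Cxcl10 in endothelial cells, KO against WT at 24 h (-2.31) and 24 h against sham in KO (-1.36). Without the T/NK subclusters led by macrophage genes, also added later, 8 of 10 T/NK ratios stayed within their interval. T/NK ratios without doublet removal were not run, since no cluster was named T/NK there.

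No paired analysis was possible because the groups of each comparison hold 1 library each; a fit that takes the 3 conditions as pairs for genotype was not run. Depth limits the receptors most: Cxcr3 and Cxcr6 had at most 35 and 75 UMIs in the T/NK cells of a library.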

Other observations

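Other ligands that attract lymphocytes lay each mainly in 1 class, which for some was also that of one of the 6 genes described. Ccl17 and Ccl22, ligands of Ccr4, had 92.0% and 95.7% of their UMIs in MHC class II-high cells. The Ccr7 ligands Ccl19 and Ccl21a had 94.7% in fibroblast and 93.0% in lymphatic endothelial cells. Cx3cl1, the ligand of Cx3cr1, had 67.8% in endothelial cells, and Cx3cr1 had 77.8% in monocyte/macrophage cells, where it stood at 36.4 and then 134 CPM in WT and 37.7 and then 165 CPM in KO at 24 h and 72 h after ligation. Xcl1 had 95.2% in T/NK cells, at 138 and 180 CPM after sham, 28.4 and 71.1 at 24 h, and 736 and 354 at 72 h in WT and KO, and its receptor Xcr1 had 91.2% in MHC class II-high cells. The Xcl1 levels came from 16 and 18 UMIs in 4 and 4 cells after sham and 11 and 23 UMIs in 2 and 8 cells at 24 h. At 72 h they came from 314 and 119 UMIs in 13 and 28 cells. In KO at 72 h, 102 and 14 of the 170 T/NK cells lay in subclusters 1 and 5, led by macrophage genes.

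One fibroblast barcode of the WT library at 24 h after ligation, with 16965 UMIs, held 314 Cxcl10, 397 Ccl5 and 58 Ifit1 UMIs and 31 of the 42 Ifnb1 UMIs of all libraries. Ifnb1, the gene of interferon-beta, was counted in 1 other cell, a fibroblast of the KO library at 72 h with 11 Ifnb1 UMIs and none of the 6 genes. Both were singled out after their values were seen.

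In the KO library at 72 h, 2 groups of cells had member levels beside high macrophage markers. Lymphatic endothelial cells had Ccl5 at 135, Cxcl10 at 100 and Cxcl16 at 130 CPM, with macrophage markers summing to 20425 CPM against 163 and 125 in the WT and KO sham libraries. The 1804 cells of its unnamed clusters had Cxcl10 at 128 CPM (252 UMIs), Ccl5 at 58.2 CPM (115 UMIs) and Cxcl16 at 161 CPM (318 UMIs), with macrophage markers at 26931 CPM. All 252 Cxcl10 UMIs lay in 1 cluster led by haemoglobin, B cell and neutrophil granule genes. The part of the markers in these levels was not tested.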
